A study of Solanum pimpinellifolium with 6 samples.

Results

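The sequences described here are the listed miRNAs of wild tomato leaf whose names run from miR7979 to miR8051 and end in _stu, which marks an annotation after potato (Solanum tuberosum). They were taken from the authors' list by name alone, with each distinct sequence counted once. This gave 128 of the 629 distinct sequences in the list, which stand for 166 of its 759 entries and carry 31 different miR numbers. Leaves of LA2093 (Solanum pimpinellifolium), a heat-tolerant wild tomato, were taken from seedlings after 8 h at a normal temperature (26/18 °C day/night, NT), a moderately elevated one (33/33 °C, MET) or an acutely elevated one (40/40 °C, AET), and all seedlings had grown at 26/18 °C before that. Each temperature has 1 small RNA library and 1 degradome library of second fully expanded leaves; leaves of 5 seedlings were mixed per replicate, and which replicates went into a library was not stated. No difference between libraries therefore has a replicate check, and every test below compares 2 libraries and not 2 temperatures.

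Plant miRNAs are cut from hairpin transcripts by the Dicer-like enzyme DCL1, are mostly 21 nt long, often start with U and act through AGO1 on matching transcripts. Small RNAs of 24 nt in plants are mostly made by DCL3 from double-stranded RNA of transposons and other repeats. They often start with A, join AGO4-type proteins and guide DNA methylation. The names used here rest on a match to a potato entry of the miRNA database miRBase.

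Several distinct sequences share a name in the list, so each is given here with its list index in brackets. All sequences are written as DNA from the 5′ end, with bases 2 to 8 (the seed) in capitals. The most-read members were the 2 arms of a miR7983 hairpin, a miR8006 sequence with no listed genome position and a miR8019 sequence:
spi-miR7983-p5_stu (54): aGCGACATtggttctaatgacact
spi-miR7983-p3_stu (55): aCTTAACTaatgccggtaaagact
spi-miR8006-5p_stu (95): tAGTTTTTggactacaggggcacc
spi-miR8019-3p_stu (166): aAAAGAATgacctagtttgacttg

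The miR8031 sequences below are shown because their reads differed most clearly between the AET library and the other libraries. The top pair shares the seed, and spi-miR8031-p3_stu (180) differs from it in the seed:
spi-miR8031-p5_stu (183): aCACCTCAactaggacttgtacct
spi-miR8031-p3_stu (178): aCACCTCAactgagacttgtacct
spi-miR8031-p3_stu (180): aCACCTTAactaagacttgtacct
spi-miR8031_stu (181): tTAGACACctcaactaggacttgt

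A group of miR8006 sequences of 20 or 21 nt and a pair of miR7981 sequences of 24 nt are shown because closely related members were not called alike:
spi-miR8006-5p_stu (139): tTTTTGGAcggcaggggcacc
spi-miR8006-5p_stu (131): tTTTGGACggcaggggcacc
spi-miR8006-5p_stu (130): aGTTTTTGgacggcaggggca
spi-miR7981-3p_stu (90): aTAGGACTttagtttacttaaggt
spi-miR7981-3p_stu (91): aTAGGACTttagtttagttaaggt

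The next set holds other members with calls: a single miR8021 sequence, miR8007 sequences that differ near the 5′ end, and miR7984 sequences, among them a complementary pair.
spi-miR8021-p5_stu (67): gCTCAAACtcgagatctctggtt
spi-miR8007b-p3_stu (145): aCTTAAACtgtttgactctcgaaa
spi-miR8007b-p3_stu (158): aGTTAAACtgtttgactctcgaaa
spi-miR7984a-p5_stu (56): gTGAACATcataaatattgcatc
spi-miR7984c-p5_stu (58): aGTGTATTttaaaggtatata
spi-miR7984d-p3_stu (32): cATATATAcctttaaaatacaca

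The last set holds the members that have most of the listed cleavage sites, both of low sequence complexity:
spi-miR8005c-p5_stu (111): aGGGTTTAgggtttagggtt
spi-miR8029_stu (100): aTTTTTATttgttttggagc

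The members were mostly 24 nt long and mostly started with A. Of the 128, 85 (66.4%) had 24 nt, while 19 had 23 nt, 12 had 21, 7 had 22 and 5 had 20. Of the 501 other sequences in the list, 117 (23.4%) were 24 nt and 204 (40.7%) were 21 nt long. The first base was A in 69 of the 85 members of 24 nt (81.2%), against 78 of the 117 other listed sequences of 24 nt (66.7%). Among members of 21 nt, 6 of 12 started with T and 4 with A. The other potato-annotated sequences, 77 in number, had another make-up, with 36 of 21 nt and 12 of 24 nt. These shares describe the list and were not tested, since sequences of a family are not independent.

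**Figure D1:**
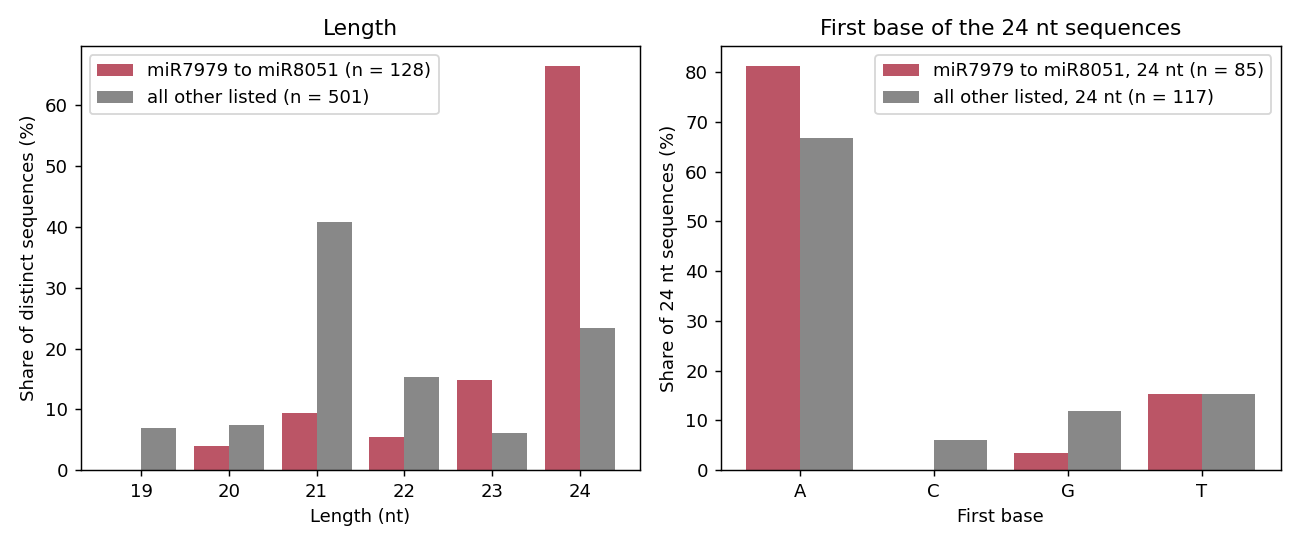
Left, share of distinct sequences (%) at each length in nt; right, share of the 24 nt sequences (%) with each first base, for the miR7979 to miR8051 sequences and for all other listed sequences. Sequences of 24 nt made up 66.4% of these sequences against 23.4% of the rest, and A was the first base of 81.2% against 66.7% of the 24 nt sequences.

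Base content was low in G and C. The median share of G and C was 37.5% in the members (range, 16.7% to 65.0%), against 45.8% in the other listed sequences. The predicted sequences of 24 nt, whose names start with PC, had the same median of 37.5%, and 66.2% of those 65 started with A. Raw read values with a fraction, as arise where a read is shared between several matches, were frequent. At least 1 raw read value was not a whole number for 67 of the 128 members (52.3%), against 164 of the 501 others (32.7%).

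The hairpins that had a genome position were short and weakly folded by the authors' own measure. The members sat in 124 listed hairpins on all 12 numbered chromosomes and on chromosome 0, with 17 on chromosome 4 and 14 on chromosome 1. Another 21 members had no genome position, 69 had 1 position and 38 had 2. The genome build behind these positions was not named in the sources used here, so no gene context is added. MFEI is the minimal folding free energy index, the folding energy of a hairpin corrected for its length and GC content, and the authors asked for 0.8 or more of their predicted miRNAs. The median MFEI was 0.5 over the 124 member hairpins and 24 of them (19.4%) were listed at 0.8 or more. Over the hairpins with a position of the other listed sequences the median was 0.9, and 63.1% reached 0.8. Those include the predicted miRNAs, which had to reach 0.8 to be listed. Among the other conserved (not predicted) sequences, 42.9% of hairpins reached 0.8 at 24 nt, with a median of 0.7. At 21 nt 67.1% did, with a median of 0.9. Members without a position are not in these values. Their listed MFEI ran from 0.5 to 2.3, mostly at 1 or more, and that of spi-miR8006-5p_stu (95) was 1.8. The median span was 63 nt (27 to 221), and 41 hairpins (33.1%) were shorter than 48 nt, the length of 2 separate sequences of 24 nt.

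**Figure D2:**
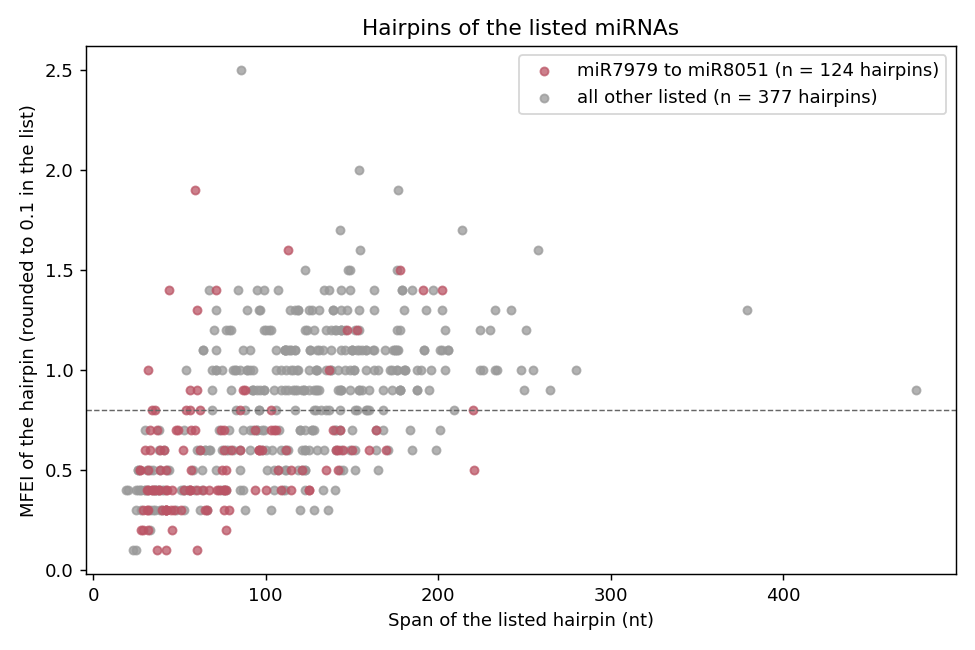
Each point is 1 listed hairpin with a genome position, with its span in nt on the x axis and its MFEI on the y axis. The dashed line is at 0.8. Of the 124 hairpins with a miR7979 to miR8051 sequence, 24 lie at or above the line and 41 span fewer than 48 nt.

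In many of these hairpins the 5p and 3p sequences cannot be separate arms. Of the 21 member hairpins that carried 2 listed sequences, 12 held sequences that overlapped by at least 8 bases, against 9 of 113 hairpins of the rest of the list. spi-miR7981-p5_stu (89) and spi-miR7981-3p_stu (90) shared 19 bases within a span of 29 nt on chromosome 6 (minus strand, 9518011 to 9518039). spi-miR8006-p5_stu (118) and spi-miR8006-p3_stu (117) shared 17 bases within 36 nt on chromosome 3. Moreover, 15 members were named 5p (or p5) at one hairpin and 3p (or p3) at another, against 4 of the 501 other sequences. spi-miR8031-p5_stu (183) is an example. It is listed as p5 in a hairpin of 40 nt on chromosome 2 (plus strand, 21233266 to 21233305) and as p3 in one of 147 nt on chromosome 3 (plus strand, 32890139 to 32890285).

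The most-read hairpin with 2 listed sequences was that of miR7983 on chromosome 12 (minus strand, 44298579 to 44298638), of 60 nt with an MFEI of 1.3. Its p5 sequence (54) had 466 raw reads over the 3 libraries and its p3 sequence (55) had 424, so the more-read arm held 52.4% of the reads. The miR7984 hairpin on chromosome 12 (plus strand, 63797787 to 63797977, MFEI 1.4) gave 73 reads for spi-miR7984a-p5_stu (56) and 54.5 for spi-miR7984b-p3_stu (57). Over the 9 member hairpins whose 2 sequences overlapped by fewer than 8 bases, the more-read one held a median of 57.3% of the reads, and a single hairpin passed 90%. Several of the 9 held few reads, down to 3 and 3, and the hairpin past 90% rested on 12 and 1. Some of their sequences still overlapped, by up to 7 bases. Over 104 such hairpins of the other listed miRNAs the median was 88.9%, and 48 passed 90%.

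Members with the same number shared sequence, often shifted by a few bases. A run of at least 16 bases was shared with another member, on either strand, by 83 of the 128. These fell into 21 clusters, and the largest held 13 miR8006 sequences. There were 98 different seeds, 20 of them in more than 1 member, and none of those 20 occurred in the rest of the list. The run AAAGAATGAC was in all 14 miR8019 sequences, and of all 629 listed sequences 2.54% held it on either strand, which included 2 named miR8006. ACACCTCAAC was in 9 of the 10 miR8031 sequences and in 1.75% of the list. CCGGTAAAGA was in 6 of 10 miR7983 and GTTTGACTCT in 7 of 16 miR8007 sequences. These runs were picked by a search for the 10-base run held by most sequences of each number. Sequence pairs of miR7984 were complementary to each other. spi-miR7984c-p5_stu (58) was complementary over 20 bases to spi-miR7984d-p3_stu (32) and over 21 bases to spi-miR7984b-p3_stu (57). The hairpins of (58) and (32) are both listed on the minus strand, on chromosomes 11 and 9.

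These sequences were rare in the leaf. They summed to 675 raw reads at NT, 1140 at MET and 1382.5 at AET. That was 0.224% of all listed miRNA reads at NT (95% exact binomial interval, 0.207 to 0.241), 0.268% at MET (0.253 to 0.284) and 0.350% at AET (0.332 to 0.369). The 3 intervals did not overlap. A share also depends on the other listed reads. On the authors' normalized reads, the log2 ratio of the sum for MET against NT was 0.08 (95% interval, −0.06 to 0.22), which includes no change. They cover counting error only, since amplified reads are not independent molecules. The median member had 9.75 raw reads over the 3 libraries together, 64 members had fewer than 10, and 4 had more than 100. The 3 most-read members, from miR7983 and miR8006, held 35.3%, 37.7% and 40.1% of the members' reads at NT, MET and AET. Of the 128 members, 80 (62.5%) had reads in all 3 libraries, against 365 of the 501 others (72.9%). A further 2 were seen in the NT library alone with up to 3 reads, 7 in the MET library alone with up to 4 and 6 in the AET library alone with up to 13. At these depths 0 reads allows up to 3, so most of these members cannot be assigned to a single library.

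Reads are compared below as the authors' normalized reads, in which each raw read counts 1.33 at NT, 0.833 at MET and 0.898 at AET. A sequence was called higher or lower where a chi-square test and a two-sided Fisher's exact test both reached a p of 0.05 and the log2 ratio had a size of 1 or more. No correction for many tests was made in that rule. Its tests and thresholds follow the study's methods, which do not name the totals a sequence was set against. The totals over all listed entries were chosen here. Brackets after a ratio hold its exact 95% interval, computed on raw reads. In all, 33 of the 128 members (25.8%) were called in at least 1 of the 3 comparisons and 95 in none, against 219 of the 629 listed sequences (34.8%). Of the 33, 18 had fewer than 10 normalized reads in every library.

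**Figure D3:**
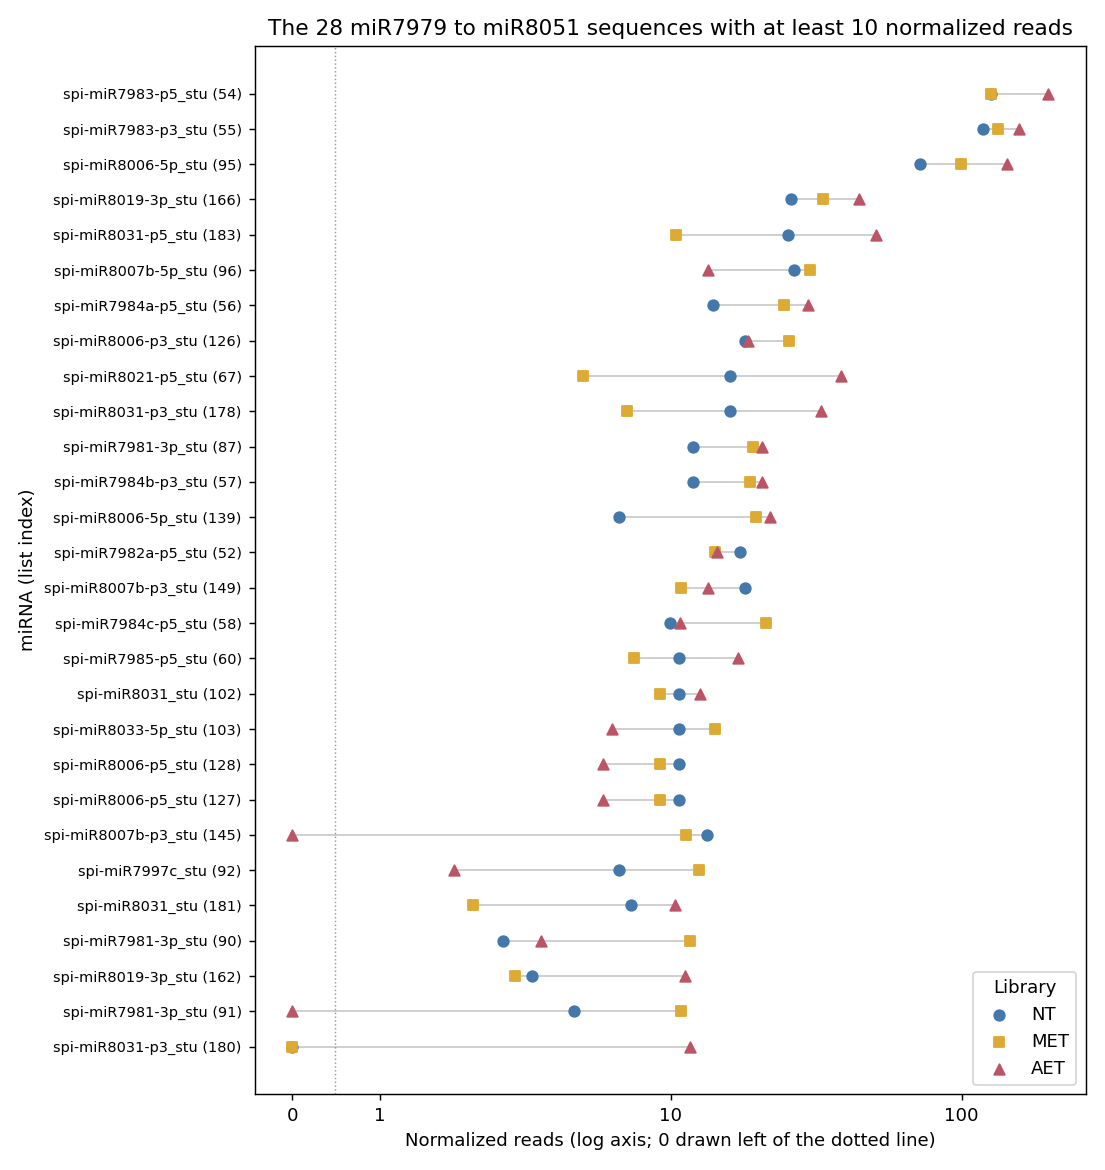
Normalized reads (log axis, with 0 drawn left of the dotted line) of the 28 miR7979 to miR8051 sequences that reached 10 in a library, in the NT (circles), MET (squares) and AET (triangles) libraries. The miR7983 hairpin and spi-miR8006-5p_stu (95) lead, spi-miR8031-p5_stu (183), spi-miR8031-p3_stu (178) and spi-miR8021-p5_stu (67) are lowest in MET and highest in AET, and spi-miR8007b-p3_stu (145) is at 0 in AET.

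At 33/33 °C, few of these miRNAs differed from the normal temperature. Of 122 members with reads in the MET or NT library, 7 were called higher and 3 lower in the MET library, and 112 were not called. Of all 605 sequences tested, 6.94% were called higher and 5.29% lower, so the members' shares of 5.74% and 2.46% lay at or below the background. The median log2 ratio of the 122 members was −0.19, beside −0.09 over all 605. Scaled instead to valid reads, the reads of a library left after the read filters of the study, these medians were 0.24 and 0.34, with the members still below the rest. Members of 24 nt had a median of −0.24 and shorter ones of 0.33 on normalized reads.

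Both calls that held after Benjamini-Hochberg adjustment at 33/33 °C were miR8006 sequences. One was spi-miR8006-5p_stu (139), a sequence of 21 nt with hairpins on chromosomes 6 and 7. It had 23.5 raw reads in the MET library against 5 in the NT library, which put the log2 ratio at 1.56 (0.17 to 3.34; Fisher's exact p = 0.00667). The other was the shorter spi-miR8006-5p_stu (131), whose 20 bases lie inside it. It had 9.5 reads in the MET library and 0 in the NT library, at least 1.98-fold higher against a floor of 3 reads (Fisher's exact p = 0.00272). Together with spi-miR8006-5p_stu (114) and spi-miR8006-5p_stu (130), which share runs with them, they summed to 45 reads in the MET library against 10.5 in the NT library, a log2 ratio of 1.43 (0.38 to 2.46). In the MET library most reads of this group came from the 2 forms that start with T. The sum includes both called sequences and so adds no separate support. spi-miR8006-5p_stu (135), which differs from (139) by 1 base (A11G, base of (135) first), is not in the sum. It had 4.5 reads in the MET library and 3 in the NT library, a log2 ratio of −0.09 (−2.30 to 2.75), and 0 in the AET library.

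Other members called higher in the MET library were few-read sequences. spi-miR7981-3p_stu (90) had 14 raw reads in the MET library and 2 in the NT library, a log2 ratio of 2.13 (0.01 to 5.31). spi-miR7984c-p5_stu (58) had 25.5 in the MET library and 7.5 in the NT library, a log2 ratio of 1.09 (−0.16 to 2.38). That call ended with raw reads in the tests. The others were spi-miR7982a-p3_stu (53), spi-miR8051-p5_stu (71) and spi-miR8007b-p3_stu (158), with 8, 8 and 12 reads in the MET library.

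The members called lower at 33/33 °C came from 3 different numbers. spi-miR8021-p5_stu (67), from a hairpin of 220 nt on chromosome 1 (plus strand, 7560728 to 7560947), had 6 raw reads in the MET library and 12 in the NT library, a log2 ratio of −1.67 (−3.37 to −0.15). spi-miR8031-p5_stu (183) had 12.5 in the MET library and 19 in the NT library, a log2 ratio of −1.28 (−2.36 to −0.13), and was not called on valid reads. spi-miR8006-p5_stu (141) had 0 in the MET library and 6 in the NT library, at least 3.19-fold lower. None of these 3 calls held after Benjamini-Hochberg adjustment over all 605 sequences, and of the 7 higher ones 2 did.

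At 40/40 °C, the called members were nearly all higher than at the normal temperature. Of 121 members with reads in the AET or NT library, 15 were called higher, 1 lower and 105 neither. Over all 597 sequences tested, 13.4% were called higher and 8.71% lower. The members' share of higher calls, 12.4%, was near that background, while their share of lower calls was 0.826%. The median log2 ratio of the 121 members was 0.41, beside −0.03 over all 597 sequences, and 72 members had more normalized reads in the AET library. Of the 15 higher calls 11 remained after adjustment, and 7 had at least 10 normalized reads in a library.

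The miR8031 sequences gave the clearest pattern. spi-miR8031-p5_stu (183) had 19, 12.5 and 56.5 raw reads at NT, MET and AET. For AET against NT the log2 ratio stood at 1.01 (0.25 to 1.85; Fisher's exact p = 0.000749), and for AET against MET at 2.28 (1.35 to 3.23; Fisher's exact p = 4.51e-08). The MET library was the lowest of the 3 and the AET library the highest. spi-miR8031-p3_stu (178), which differs from it at positions 12 and 13 counted from the 5′ end (G12A and A13G, this sequence's base first), had 12, 8.5 and 36.5 reads. Its log2 ratio was 1.04 for AET against NT (0.09 to 2.13) and 2.21 for AET against MET (1.07 to 3.38). spi-miR8031-p3_stu (180), which differs from (178) by C7T and G12A (base of (178) first), had 13 reads in the AET library and 0 in both other libraries. It was at least 2.93-fold higher than in NT and at least 4.67-fold higher than in MET. All 3 sequences were highest in the AET library, which is also why they are shown. An effect of the seed change in (180) was not tested.

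Summed over the 10 miR8031 sequences, the reads were 57 at NT, 51 at MET and 152.5 at AET. The log2 ratio of the sum was 0.85 for AET against NT (0.41 to 1.32), 1.69 for AET against MET (1.23 to 2.18) and −0.83 for MET against NT (−1.41 to −0.26). On valid reads it was 0.99, 1.40 and −0.41, so the direction held in each comparison. Not every sequence moved alike. spi-miR8031_stu (186) had 7.5, 10.5 and 9 reads and spi-miR8031_stu (102) had 8, 11 and 14, and neither was called. These sequences overlap and several of their read values hold fractions, so they are not independent measurements.

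**Figure D4:**
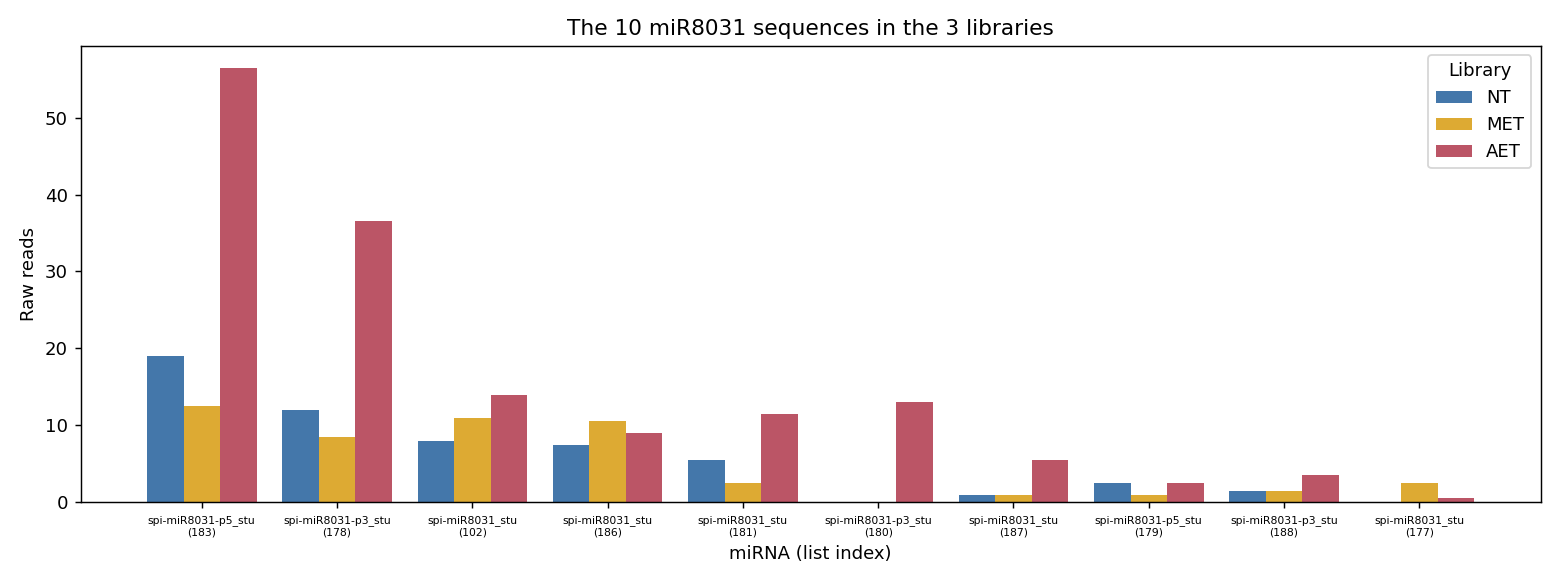
Raw reads of the 10 miR8031 sequences at NT, MET and AET (bars), ordered by summed normalized reads. spi-miR8031-p5_stu (183), spi-miR8031-p3_stu (178) and spi-miR8031-p3_stu (180) are highest in the AET library, with 56.5, 36.5 and 13 reads, while spi-miR8031_stu (186) is not.

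spi-miR8021-p5_stu (67) followed the same order of libraries. It had 12, 6 and 43 raw reads at NT, MET and AET, with log2 ratios of 1.28 for AET against NT (0.33 to 2.33; Fisher's exact p = 0.000596) and 2.95 for AET against MET (1.71 to 4.47; Fisher's exact p = 6.12e-08). It is the single miR8021 sequence of the list and shares no seed with another member.

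The abundant members lay higher in the AET library without reaching the fold of the rule. spi-miR7983-p5_stu (54) had 95, 151 and 220 raw reads at NT, MET and AET, a log2 ratio of 0.65 for AET against NT (0.29 to 1.01), and spi-miR7983-p3_stu (55) had 89, 160 and 175, a log2 ratio of 0.41 (0.03 to 0.79). spi-miR8006-5p_stu (95) had 54, 119 and 159 reads and a log2 ratio of 0.99 (0.54 to 1.47), just short of the fold of the rule. On median-of-ratios or valid-reads scaling it was called higher. spi-miR8019-3p_stu (166) had 19.5, 40 and 49.5 reads and a log2 ratio of 0.78 (−0.02 to 1.58). Both arms of the miR7983 hairpin were at nearly equal normalized reads in NT and MET, with log2 ratios of −0.01 and 0.17 for MET against NT.

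All 10 miR7983 sequences had more normalized reads in the AET library than in the NT library, and 3 of them were called. The sum was 451 raw reads in the AET library against 197.5 in the NT library, a log2 ratio of 0.63 (0.38 to 0.87). The 3 called ones had 0 reads in the NT library. spi-miR7983-p5_stu (98) had 9 reads in the AET library, spi-miR7983-3p_stu (95) had 8 and spi-miR7983-p3_stu (93) had 6. With the 0 set to 3 reads these are 2.03, 1.80 and 1.35-fold higher. The 95% intervals of their log2 ratios started at 0.41, 0.21 and −0.33, so that of (93) included no change.

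Among miR7984 sequences, spi-miR7984a-p5_stu (56) had 33 raw reads in the AET library and 10.5 in the NT library, with its log2 ratio at 1.09 (−0.0015 to 2.15; Fisher's exact p = 0.00618). spi-miR7984d-p3_stu (32) and spi-miR7984b-p3_stu (103) had 9 and 7 reads in the AET library and 0 in the NT library. spi-miR7984c-p5_stu (58), complementary to (32), had 12 reads in the AET library and 7.5 in the NT library, with no call. The sum over the 11 miR7984 sequences had a log2 ratio of 0.70 for AET against NT (0.18 to 1.24).

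Within miR8006, spi-miR8006-5p_stu (139) was called at 40/40 °C as well, with 24.5 raw reads in the AET library against 5 in the NT library and its log2 ratio was 1.73 (0.34 to 3.50; Fisher's exact p = 0.00241). spi-miR8006-p3_stu (133) was called on 10 and 1.5 reads. The other 27 miR8006 sequences were not called in that comparison, and 16 of the 29 had more normalized reads in the AET library while 12 had fewer. spi-miR8006-p3_stu (126), the most-read sequence of 21 nt among the members, had 13.5, 30.5 and 20.5 reads at NT, MET and AET and was called in none of the comparisons. The sum over all 29 had a log2 ratio of 0.50 for AET against NT (0.22 to 0.80).

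The remaining higher calls at 40/40 °C were spi-miR8019-3p_stu (162), with 12.5 raw reads in the AET library and 2.5 in the NT library, spi-miR7982a-p3_stu (53), with 11 and 1, and spi-miR8039_stu (105), with 6 and 0. The call of spi-miR8019-3p_stu (162) ended after adjustment and with raw reads in the tests.

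The most-read miR7981 sequence, spi-miR7981-3p_stu (87), had 9, 23 and 23 raw reads at NT, MET and AET and was not called. The leading miR8030 sequence, spi-miR8030-p5_stu (70), had 2, 4 and 8 reads, also with no call.

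The single member called lower at 40/40 °C was spi-miR8007b-p3_stu (145), from a hairpin of 39 nt on chromosome 12 (plus strand, 46503808 to 46503846). It had 10, 13.5 and 0 raw reads at NT, MET and AET, at least 4.94-fold lower in AET than in NT (Fisher's exact p = 0.000303). spi-miR8007b-p3_stu (158) differs from (145) by C2G in the seed (base of (145) first). It had 2.5, 12 and 8.5 reads and was thus present in the AET library. Summed over 16 sequences, miR8007 had 69.5 raw reads in the AET library against 73.5 in the NT library, a log2 ratio of −0.65 (−1.14 to −0.16). It was the only number with at least 10 sequences whose sum was lower in AET than in NT on normalized reads, and it stayed lower on valid reads at −0.51.

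**Figure D5:**
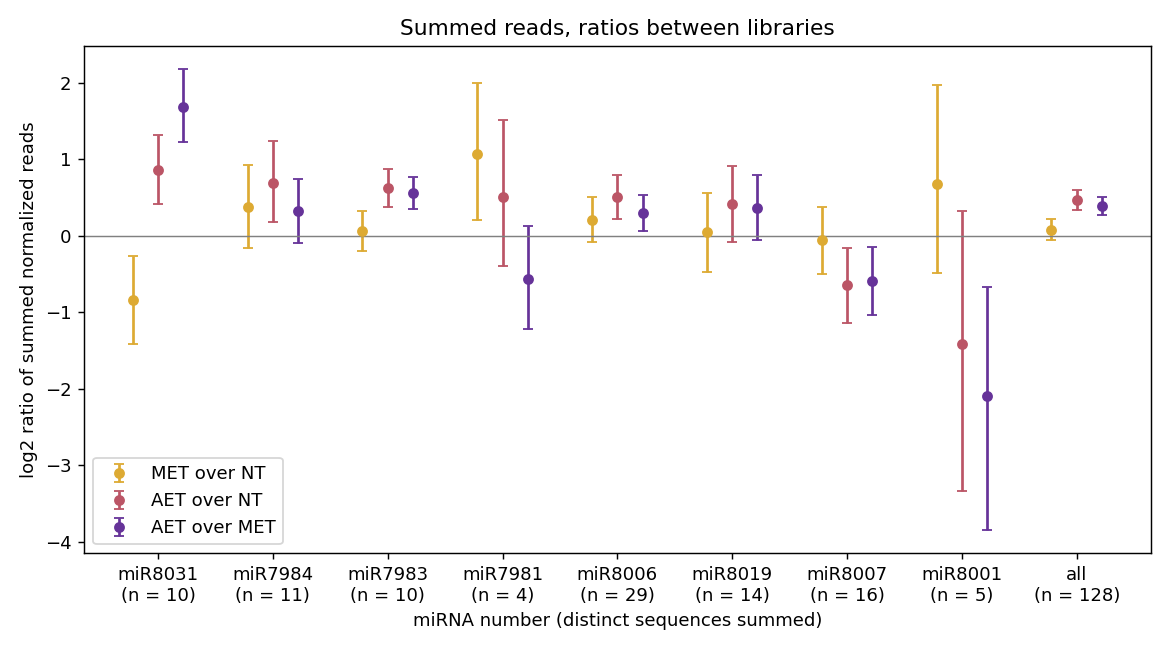
log2 ratios of summed normalized reads (points) with exact 95% intervals (bars) for each miR number with at least 4 distinct sequences and for all 128 sequences, MET over NT, AET over NT and AET over MET. miR8031 lies at −0.83 for MET over NT and 1.69 for AET over MET, and miR8007 at −0.65 for AET over NT.

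Between the AET and MET libraries, both at elevated temperature, 15 of 126 members were called higher and 7 lower in the AET library, and 104 were not called. Over all 599 sequences tested, 11.9% were called higher and 9.52% lower, which the members' 11.9% and 5.56% matched or fell below. With totals over distinct sequences, 9 members were higher and 10 lower, beside 59 and 68 of all sequences. After adjustment 4 members were higher and 3 lower, beside 45 and 45 of all sequences. The median log2 ratio of the members was 0.32, beside −0.08 over all sequences. On valid reads the medians were 0.04 and −0.36.

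The higher calls were again led by miR8031, with 4 of its 10 sequences, and by spi-miR8021-p5_stu (67). spi-miR8031_stu (181) was the fourth, with 11.5 raw reads in the AET library and 2.5 in the MET library, a log2 ratio of 2.31 (0.22 to 4.57). spi-miR7985-p5_stu (60) had 19 and 9 reads, a log2 ratio of 1.19 (−0.03 to 2.51), and its call ended with valid-reads scaling, with totals over distinct sequences and after adjustment. spi-miR8006-p3_stu (117) and spi-miR8006-p3_stu (122) had the same reads in every library, 1 at NT, 0.5 at MET and 6 at AET, and are shifted copies of each other, so they hold 1 measurement. The other higher calls were spi-miR8019-3p_stu (162), spi-miR7984d-p3_stu (32), spi-miR7984b-p3_stu (103), spi-miR7984b-p5_stu (106), spi-miR7983-p3_stu (93), spi-miR8006-p5_stu (142) and spi-miR8007b-p3_stu (157), with 6 to 12.5 reads in the AET library and 0 to 3.5 in the MET library.

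The lower calls included 4 members with 0 reads in the AET library. spi-miR8007b-p3_stu (145), described above, was at least 4.18-fold lower than in MET. spi-miR7981-3p_stu (91) had 0 raw reads in the AET library against 13 in the MET library, at least 4.02-fold lower (Fisher's exact p = 0.000982). spi-miR7981-3p_stu (90) differs from (91) at a single base (C17G, base of (90) first). It had 4 in the AET library against 14 in the MET library and was not called on normalized reads. A difference between (90) and (91) was not tested. The 2 others at 0 were spi-miR8001a_stu (93), with 0 against 11 reads, and spi-miR8051-p5_stu (71), with 0 against 8. spi-miR7997c_stu (92) had 2 reads in the AET library and 15 in the MET library, a log2 ratio of −2.80 (−5.97 to −0.69). spi-miR8006-5p_stu (131) had 1.5 reads at AET against 9.5 at MET, and its call ended on valid reads. The best-read member called lower was spi-miR8007b-5p_stu (96), with 15 in the AET library and 36 in the MET library, a log2 ratio of −1.16 (−2.13 to −0.25).

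All members summed, normalized reads were 1241 in the AET library and 897 in the NT library, a log2 ratio of 0.47 (0.33 to 0.60). For AET against MET it was 0.39 (0.27 to 0.50) and for MET against NT 0.08 (−0.06 to 0.22). Without the 3 most-read members these values were 0.36, 0.33 and 0.03. The scaling decides where the difference falls. On valid reads the sum was 0.61 for AET against NT, 0.10 for AET against MET and 0.51 for MET against NT, so the difference between AET and NT kept its direction while that between AET and MET was mostly lost.

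A higher share at AET than at NT was also seen in the predicted sequences of 24 nt, but not in the other conserved ones. The lists are not like for like, since the authors kept predicted sequences only at 10 or more normalized reads in a library. Such a sequence could enter through the library where it was high. Of the 52 other conserved sequences of 24 nt, 37 stayed under 10 in every library. The predicted sequences of 24 nt held 0.347% of the listed reads in the AET library against 0.239% in the NT library (95% intervals, 0.329 to 0.366 and 0.223 to 0.258). The other conserved sequences of 24 nt held 0.293% in the AET library and 0.321% in the NT library, with intervals that overlapped (0.276 to 0.310 and 0.301 to 0.342). Among the members, those of 24 nt held 0.281% in AET and 0.184% in NT, and those of 20 to 23 nt held 0.0690% in AET and 0.0394% in NT. The part of other small RNAs of 24 nt in these differences was not tested.

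Degradome libraries hold the 5′ ends of cut transcripts, and a cleavage site is listed where such ends lie at the position expected from pairing with a miRNA. Of 362 listed sites, 13 belonged to 5 of the 128 members: 7 to spi-miR8029_stu (100), 3 to spi-miR8005c-p5_stu (111) and 1 each to spi-miR7983-p3_stu (93), spi-miR7983-p5_stu (92) and spi-miR8006-5p_stu (130). The deposited tag values were turned back into reads, and the libraries held 11774232 (NT), 11471728 (MET) and 10853424 (AET) of them. The other 123 members, the abundant miR7983 arms and all miR8031 and miR8021 sequences among them, had no listed site.

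The support for these 13 sites was weak. They had between 0 and 9 reads per library and were of category 2 (above the transcript's typical signal but not its highest) in 15 site and library pairs, and of category 4 (a single read) in 9. No member site reached category 0 or 1, the highest peaks of a transcript, while 48 of the other 349 sites did so in at least 1 library. At that share only few of 13 sites would fall in these categories, and the difference was not tested. The authors' p-value of the match, which falls as a site is less likely by chance, was between 0.154 and 0.996 at the member sites with a median of 0.944. At the other sites its median was 0.524, and 15.3% were at or below 0.05. The alignment scores, where lower means better pairing, were 3.5 or 4 at every member site.

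spi-miR8029_stu (100) carried 7 of the 13 sites on 1 raw read of its own, found in the MET library. Its best-read site was on Solyc02g070550.2.1, annotated as an RNA-binding protein, with 7, 5 and 9 degradome reads at NT, MET and AET. The study also measured the level of this transcript by quantitative PCR. At MET it reported a lower level than in the control at the first and last time points, and a higher one at a time between them. At AET it reported a higher level at the last time point. It named no change at 8 h, the exposure behind the libraries used here. The site on Solyc02g083200.2.1 had 5, 2 and 6 reads. Both sites were present in all 3 libraries, also in NT and AET where no read of the miRNA was found. The site on Solyc01g087210.2.1, a cellulose synthase transcript, which encodes an enzyme of cell wall formation, had 0, 2 and 3 reads. The one on Solyc12g019060.1.1, an ankyrin repeat protein, had 0, 2 and 1, and that on Solyc01g110160.2.1 had 0, 2 and 0. Solyc10g008040.2.1, a late embryogenesis abundant (LEA) domain protein, and Solyc04g007000.1.1, the transcription factor related to ABI3/VP1 1, had 1 read each in the AET library alone.

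spi-miR8005c-p5_stu (111) consists of copies of TTTAGGG, the repeat unit of plant telomeres. It was the only one of the 629 listed sequences to hold that unit on either strand (0.159%). It had 4.5, 5 and 2 raw reads at NT, MET and AET. Its site on Solyc03g031950.1.1 had 5, 4 and 1 degradome reads, that on the GTP-binding protein Solyc02g023970.2.1 had 0, 2 and 1, and that on Solyc03g007980.1.1, a septum site-determining protein (MIND) of the kind that places the plastid division site, had 0, 0 and 1.

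The 2 miR7983 sequences with a site came from the same hairpin of 42 nt on chromosome 8 (plus strand, 42393723 to 42393764). spi-miR7983-p3_stu (93) was placed on Solyc11g065830.1.1, annotated as dicarboxylate transporter 1, a carrier of organic acids, with 2, 0 and 2 degradome reads and match p-values of 0.155 and 0.154, the lowest among the members. spi-miR7983-p5_stu (92) was placed on Solyc05g015310.2.1, a minichromosome maintenance family protein of DNA replication, with 0, 1 and 1 reads. spi-miR8006-5p_stu (130) was placed on Solyc02g088760.2.1, a ribosomal protein L12 transcript, with 0, 1 and 0 reads.

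No member site differed between libraries. Fisher's exact test with Benjamini-Hochberg adjustment over all listed sites called none of 10 member sites for MET against NT, of 11 for AET against NT and of 13 for AET against MET. Over all sites it called none of 284, 298 and 285 (0%), and at an unadjusted p of 0.05 or less it called 5, 3 and 3, none of them a member site. The smallest unadjusted p of a member site was 0.11, with counts this low leaving only very large differences detectable.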

How the data were processed

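Small RNA reads of 3 libraries were filtered by the authors to 19 to 24 nt, cleared of other RNA classes and repeats and matched to plant miRNAs of miRBase. The deposited raw reads are estimated counts, some with fractions. The authors' normalized reads, kept here as a score, differ from raw reads by 1 constant per library. The MFEI and the alignment score of a site are further scores from the authors, as are degradome tags scaled to a fixed library total. Match p-values and categories were used as deposited. The authors' own fold changes and p-values of each comparison, in 2 further tables, were not used.

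Tests ran over all 629 distinct sequences, with totals over the 759 entries, on whole numbers. Intervals of ratios are conditional binomial. A library at 0 was set to 3 reads for fold values, which leave out the counting error of the other library. The 1-read value of category 4 sites gave degradome reads, within 0.01 of whole numbers at every member site. Listed reads were 301702, 424963 and 394910 (NT, MET, AET). Named are members called with at least 10 normalized reads or with 0 in a library, the 10 most read, the most-read of each number with at least 3 sequences, those with a site, and others by counts or as pairs with them, chosen after their values were seen. The members and lists were chosen with earlier results of these data known. Alternatives were other totals and scalings (valid reads from the library totals of the study, median-of-ratios), Benjamini-Hochberg adjustment, tests on raw reads, read minimums and no fold threshold. The rules were tested on simulated data. Python 3.11.15, numpy 2.4.6, scipy 1.17.1 and matplotlib 3.10.9 were used.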

Additional observations from a re-analysis of the deposited data

How the results depend on the processing

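With 1 library per temperature and most members under 10 reads, depth limits every call. No paired analysis was possible because each group holds a single library, and no replicate could be left out. Alternatives ran on each count of called members and each sum. For MET against NT (7 higher and 3 lower), valid-reads scaling gave 6 lower, raw reads in the tests 3 higher, adjustment 2 higher and 0 lower, and a minimum of 10 normalized reads 3 higher. For AET against NT (15 and 1), raw reads in the tests gave 3 lower, the minimum of 10 reads 7 higher, and sequences with reads in both libraries 8 higher and 0 lower. For AET against MET (15 and 7), totals over distinct sequences gave 9 higher, adjustment 4 and 3, the minimum 7 and 4, and reads in both libraries 3 lower. The cause was not tested, except that the minimum and the last setting test fewer sequences. Valid-reads scaling moved the summed log2 ratio to 0.51 for MET against NT, to 0.61 for AET against NT and to 0.10 for AET against MET; it shifts all sequences by 0.42, 0.14 and −0.29 in that order. Under it, summed miR8007 reads for MET against NT had a log2 ratio of 0.36, against −0.06 on normalized reads. The split of higher and lower calls among members on valid reads was 6 to 6, 16 to 1 and 22 to 8, beside 69 to 28, 75 to 48 and 81 to 74 over all sequences. Leaving out the 3 most-read members, chosen after seeing the data, moved no sum beyond its interval. Calls of the named members stayed in 257 cases, ended in 63, were gained in 14 and reversed in none. With runs of at least 20 bases, 53 members shared sequence, against 83. With an overlap of at least 12 bases, 9 hairpins held overlapping members, against 12.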
